A study of Homo sapiens with 6 samples.

Results

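The 10 genes described here encode 7 matrix metalloproteinases (MMPs) and 3 tissue inhibitors of metalloproteinases (TIMPs). They were chosen by name, as MMP1, MMP2, MMP3, MMP9, MMP10, MMP13, MMP14, TIMP1, TIMP2 and TIMP3, and each was matched through its Ensembl identifier to 1 row of the deposited tables, so that all 10 were found among 39168 identifiers. The measurements came from CAL62, an established cell line of anaplastic thyroid carcinoma, labelled as wild type. Cells received 50 nM erianin, a natural compound from Dendrobium, or the solvent DMSO (0 nM erianin), and RNA was collected after 48 h, with 3 libraries per group. The libraries are labelled as replicate experiments of this 1 line at 1 dose and 1 time, and how the cultures were kept apart is not described, so the p-values measure only the spread between these libraries. RNA came from whole cultures, in which fewer cells of a kind and less RNA per cell cannot be told apart.

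MMPs are zinc-dependent endopeptidases that cleave proteins of the extracellular matrix and the cell surface. Most are secreted as inactive proenzymes, a few are held at the membrane, and TIMPs bind the active site of the mature enzymes and inhibit them. Collagenases (MMP1, MMP13) cut fibrillar collagen, stromelysins (MMP3, MMP10) cut many matrix proteins and can activate other pro-MMPs, gelatinases (MMP2, MMP9) cut denatured collagen and basement membrane, and MMP14 is the membrane-type enzyme that activates pro-MMP2 in a complex with TIMP2. In carcinoma tissue MMPs are made by tumor cells and by stromal cells.

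In these libraries MMP14 and TIMP1 were abundant, TIMP2 and MMP1 were intermediate, and the other genes were scarce or not detected. With erianin, MMP1 rose 4.61-fold, MMP10 8.52-fold and MMP3 from 2 reads in all DMSO libraries to 80 reads in all erianin libraries. These genes lie next to each other on chromosome 11. MMP14, TIMP1 and TIMP2 had log2 fold changes of -0.33, 0.16 and -0.26, and none of them passed the thresholds for a differentially expressed gene (DEG).

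The promoter of MMP10 is shown because MMP10 rose from a low level, and those of MMP14 and TIMP1 because these were the most abundant MMP and TIMP genes. The RefSeq promoter table (GRCh38.p14) held 4 of the 10 genes, namely MMP10, MMP14, TIMP1 and TIMP3. Each sequence begins 250 bases before the RefSeq start of the gene, runs 5′ to 3′ on the strand of the gene, and ends before the first start annotated in RefSeq or GENCODE. Capitals mark matches to a TATA box (TATAAA) or a GC box (GGGCGG or its reverse complement CCGCCC). MMP10 is at chr11:102780629-102780878 on the minus strand, MMP14 at chr14:22836335-22836556 on the plus strand and TIMP1 at chrX:47582186-47582312 on the plus strand.
MMP10: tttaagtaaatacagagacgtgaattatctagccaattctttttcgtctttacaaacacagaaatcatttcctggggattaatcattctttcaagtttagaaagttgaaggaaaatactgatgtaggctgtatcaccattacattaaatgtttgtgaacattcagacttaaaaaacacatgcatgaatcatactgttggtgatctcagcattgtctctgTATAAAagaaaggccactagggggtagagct
MMP14: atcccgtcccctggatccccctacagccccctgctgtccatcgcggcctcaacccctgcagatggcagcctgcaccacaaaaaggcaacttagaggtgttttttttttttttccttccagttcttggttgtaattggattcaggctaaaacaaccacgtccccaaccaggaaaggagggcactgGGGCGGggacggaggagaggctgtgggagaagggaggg
TIMP1: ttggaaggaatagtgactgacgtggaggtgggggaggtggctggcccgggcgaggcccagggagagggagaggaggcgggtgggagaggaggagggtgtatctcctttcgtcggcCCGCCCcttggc

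Over the 250 bases before the start, MMP10 had a TATA box whose first base lay at -31 and a GC content of 34.4%, and no GC box. MMP14 had 1 GC box at -66 and a GC content of 56.8%, and TIMP1 had GC boxes at -135 and -45 and a GC content of 64.8%. TIMP3 had 5 GC boxes and a GC content of 72.4%. Of 35116 promoters of this length, 10.7% held TATAAA or its reverse complement TTTATA and 42.6% held a GC box. The letters of an AP-1 site, TGAGTCA or TGACTCA, were in none of the 4 windows and in 4.2% of all promoters, and those of an ETS site, AGGAAG or CTTCCT, were in TIMP1 (at -87) and in 28.7% of all promoters. The matches at -45 and -87 of TIMP1 lie beyond the stretch shown, and no match overlapped another. Only exact letters were searched, so variants of these sites are not listed, and their absence cannot be read from this search. MMP1 and MMP3 had no promoter sequence to search.

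Read counts on named genes ranged from 25776301 to 34107727 per library. DMSO replicate 3 stood apart, with a distance in log2 CPM (counts scaled to the size of the library) of 63.5 on average to the other DMSO libraries, against 37.2 between those and at most 29 between erianin libraries, and values without it are given beside the results whose call it changes. Between 64.4% and 69.5% of the counts from 1 to 20 were even numbers, and whether both ends of a read pair were counted is not stated, so a count of 2 may stand for 1 fragment. The epithelial keratins KRT8, KRT18 and KRT19 had 381, 590 and 545 TPM (a level scaled by gene length and library) with DMSO, and the thyroid factor PAX8 had 145 TPM with DMSO and 105 TPM with erianin. The 7 thyroid markers summed to between 144 and 153 TPM with DMSO and between 108 and 110 TPM with erianin, most of it PAX8, without overlap. TSHR and NKX2-1 were listed at 0 in every library, and TG and the epithelial cadherin CDH1 averaged below 0.05 TPM in each group, so that part of the markers of thyroid follicular and epithelial cells were absent. Of 6 fibroblast markers, DCN was at 0 and only COL1A1 averaged at least 1 TPM, and the summed level was between 13.1 and 14.9 TPM with DMSO and between 12.5 and 13.4 TPM with erianin. Of 6 leukocyte markers, PTPRC averaged at most 0.0153 TPM, and the sum was between 2 and 3.65 TPM with DMSO and between 3.72 and 5.53 TPM with erianin, most of it CD14. The part of these markers in the results was not tested. The 5 endothelial markers summed to at most 0.231 TPM with DMSO and at most 0.662 TPM with erianin.

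Genes counted as DEGs when edgeR gave an adjusted p under 0.05 together with a log2 fold change above 0.5 or below -0.5. Of the 12821 genes tested, 8.73% were DEGs, 5.37% upregulated and 3.36% downregulated. Among the 10 genes, 7 passed the filter on low counts (about 0.298 CPM in 3 libraries), and MMP2, MMP13 and TIMP3 did not. MMP3, MMP9 and MMP10 reached this level in all 3 erianin libraries and in 0, 2 and 1 of the DMSO libraries. None of them would have passed on the DMSO libraries alone. Genes like MMP3, with no DMSO library at this level, had to be higher with erianin to be tested at all. The DEGs among the 7 tested genes were MMP1, MMP3 and MMP10, all upregulated. Without the fold-change threshold MMP14, with a lower level, joined them, where 7.22% of all tested genes were higher and 7.69% lower. CPM values did not overlap between the groups for 6 of the 7, with 4 higher and 2 lower, against 38.7% of all tested genes, of which those higher made up 19.5% of the tested genes. CPM values below are scaled by TMM factors, which set the libraries to a common size, and are used to compare 1 gene between libraries, while TPM is used to compare genes.

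**Figure D1:**
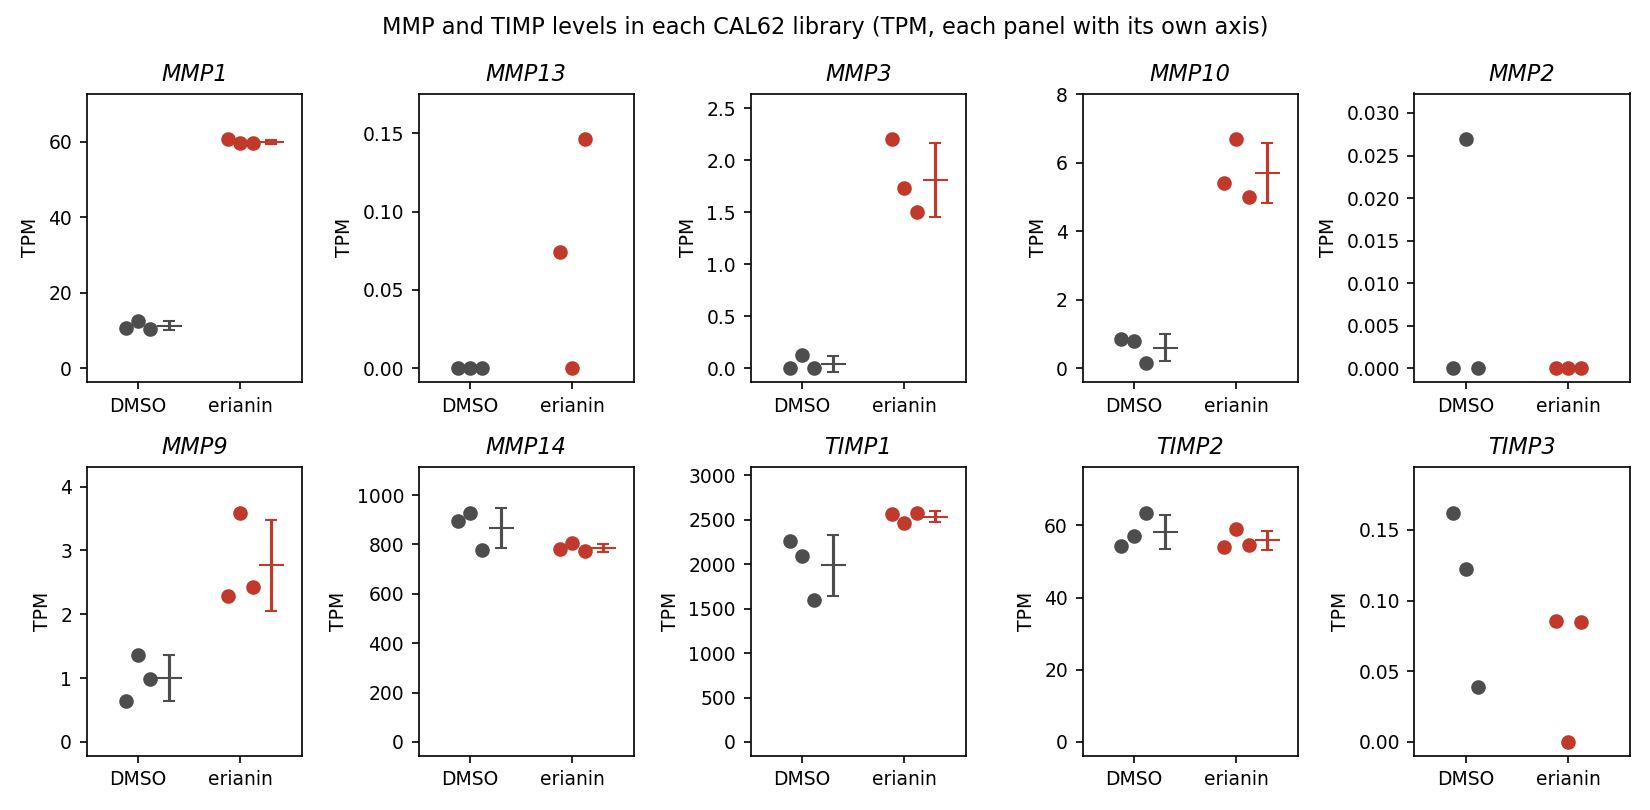
Levels of the 10 genes in TPM (vertical axes, each panel with its own scale) in the 3 DMSO libraries (grey) and the 3 erianin libraries (red), with the mean and SD beside the points for the 7 genes tested. MMP1 lay between 10.5 and 12.6 TPM with DMSO and between 59.5 and 60.6 TPM with erianin, whereas the panels of MMP2, MMP13 and TIMP3 stay below 0.2 TPM.

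The collagenase MMP1 (ENSG00000196611, chromosome 11 from 102789920 to 102798160, minus strand, GENCODE 29 on GRCh38) had 3.53, 4.10 and 3.72 CPM in DMSO replicates 1, 2 and 3. In erianin replicates 1, 2 and 3 it had 17.7, 17.6 and 17.2 CPM. The groups were far apart and each was tight, with 3.78 ± 0.288 and 17.5 ± 0.278 CPM (SD, n = 3 each). The log2 fold change was 2.21 (standard error 0.11, 95% interval from 1.94 to 2.47, edgeR adjusted p = 0.000212), which ranked 70 from the highest among all tested genes. With any 1 library left out, it stayed between 2.16 and 2.26, with an edgeR adjusted p of at most 0.006. The other collagenase, MMP13 (ENSG00000137745), was listed at 0 in every DMSO library and had counts of 2, 0 and 4 in the erianin libraries. A count of 0 over the DMSO group allows up to 0.0682 CPM for MMP13 when each pair of counts is taken as 1 fragment, above its erianin mean of 0.0576 CPM, so that no difference was detectable at this depth. This limit, like the intervals on counts, covers counting error only. The groups overlapped at 0, and MMP13 was not tested.

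The stromelysin MMP10 (ENSG00000166670, chromosome 11 from 102770503 to 102780628, minus strand) had counts of 8, 10 and 2 in DMSO replicates 1, 2 and 3 and of 64, 82 and 60 in the erianin replicates. In CPM these were 0.328, 0.308 and 0.0642 with DMSO and 1.87, 2.35 and 1.71 with erianin. DMSO replicate 3 was the lowest library, and no erianin library came near the DMSO range. Means (SD, n = 3 each) were 0.234 ± 0.147 CPM with DMSO and 1.98 ± 0.330 CPM with erianin, and the log2 fold change was 3.09 (standard error 0.42, 95% interval from 2.10 to 4.08, edgeR adjusted p = 0.00567). Without DMSO replicate 3 it was 2.62 (edgeR adjusted p = 3.7e-07), and over the 6 fits with 1 library left out it ranged up to 3.40, with an edgeR adjusted p of at most 0.0435.

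MMP3 (ENSG00000149968, chromosome 11 from 102835801 to 102843803, minus strand), the stromelysin most like MMP10 in sequence, was listed at 0 in DMSO replicates 1 and 3 and had a count of 2 in DMSO replicate 2. In the erianin libraries it had counts of 32, 26 and 22, or 0.937, 0.744 and 0.628 CPM. It was thus nearly undetected with DMSO and low but present in every erianin library. The ratio of the pooled, size-scaled counts was 33.8, with an exact 95% interval from 5.73 to 1368 when each pair of counts is taken as 1 fragment. The fitted log2 fold change was 4.86 (standard error 0.68, edgeR adjusted p = 0.00611), and since it depends on the prior count it gives no bound. Leaving out DMSO replicate 2, which held the only DMSO reads, moved it to 7.62, and over the 6 fits with 1 library left out the edgeR adjusted p was at most 0.0421. Reads shared between MMP3 and MMP10 could be few: of the distinct 50-base words in their annotated transcripts, 59 occurred in both genes, which is 2.88% of those of MMP3 and 3.36% of those of MMP10.

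Of the gelatinases, MMP9 (ENSG00000100985, chromosome 20 from 46008908 to 46016561) had 0.246, 0.524 and 0.417 CPM in the DMSO replicates and 0.791, 1.26 and 0.828 CPM in the erianin replicates. The lowest erianin library was above the highest DMSO library, although both groups were near 1 CPM or less. The log2 fold change was 1.24 (standard error 0.36, 95% interval from 0.41 to 2.07), and the edgeR adjusted p of 0.057 did not pass. Without DMSO replicate 3 it was 1.25 with an edgeR adjusted p of 0.0165, which passed. MMP9 has 430 exonic bases in common with SLC12A5-AS1, annotated on the opposite strand, and that gene was listed at 0 in all 6 libraries. MMP2 (ENSG00000087245, chromosome 16 from 55389700 to 55506691), the gelatinase that MMP14 activates, had a count of 2 in DMSO replicate 2 and was listed at 0 in the other 5 libraries.

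MMP14 (ENSG00000157227, chromosome 14 from 22836557 to 22849027, plus strand) had 1128, 1161 and 1064 CPM in DMSO replicates 1, 2 and 3 and 882, 919 and 857 CPM in the erianin replicates. Every erianin library was below every DMSO library, and 38.7% of all tested genes likewise had groups that did not overlap, in either direction. The log2 fold change was -0.33 (standard error 0.07, 95% interval from -0.50 to -0.17, edgeR adjusted p = 0.0214), under the fold-change threshold. The adjusted p was between 0.0671 and 0.122 with any library other than DMSO replicate 3 left out, and 1.57e-09 without DMSO replicate 3, where the change was -0.37. In TPM the groups overlapped, with 896, 928 and 776 TPM with DMSO and 782, 804 and 772 TPM with erianin. The TPM values of DMSO replicate 3 summed to 59.1% of their nominal total, the lowest of the 6 libraries. On that scale the median of all tested genes was shifted upward by 0.18 in log2, and the change of MMP14 was -0.14, or -0.31 relative to the median. By level, MMP14 ranked 90 from the highest of 16290 genes detected with DMSO and 121 of 17424 with erianin.

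Among the inhibitors, TIMP1 (ENSG00000102265, chromosome X from 47582313 to 47586789, plus strand), a secreted inhibitor of most MMPs, had 1332, 1224 and 1024 CPM in the DMSO replicates and 1351, 1313 and 1337 CPM in the erianin replicates. DMSO replicate 3 was the low value, and the groups overlapped. The log2 fold change was 0.16 (standard error 0.10, 95% interval from -0.08 to 0.40, edgeR adjusted p = 0.335), and 0.06 without DMSO replicate 3 (edgeR adjusted p = 0.239). In TPM the groups did not overlap, with 2266, 2096 and 1600 TPM with DMSO and 2566, 2462 and 2579 TPM with erianin, where limma gave a log2 fold change of 0.37, or 0.19 relative to the median of all genes, and no adjusted p under 0.123. By level, TIMP1 ranked 27 from the highest with DMSO and 18 with erianin, above each MMP gene in every library. Its locus lies inside that of SYN1 on the opposite strand, without common exonic bases, and SYN1 had at most 84 counts per library.

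TIMP2 (ENSG00000035862, chromosome 17 from 78852977 to 78925387, minus strand), which inhibits MMPs and also links pro-MMP2 to MMP14, had 146, 152 and 186 CPM in the DMSO replicates and 130, 144 and 129 CPM in the erianin replicates. The erianin values were all below the DMSO values in CPM, with DMSO replicate 3 the highest, whereas in TPM the groups overlapped. The log2 fold change was -0.26 (standard error 0.11, 95% interval from -0.51 to -0.02, edgeR adjusted p = 0.139), and -0.16 without DMSO replicate 3, where the edgeR adjusted p was 0.00633. TIMP3 (ENSG00000100234, chromosome 22 from 32801701 to 32863043), the inhibitor that binds to the matrix, had counts of 3, 3 and 1 with DMSO and 2, 0 and 2 with erianin and was not tested.

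**Figure D2:**
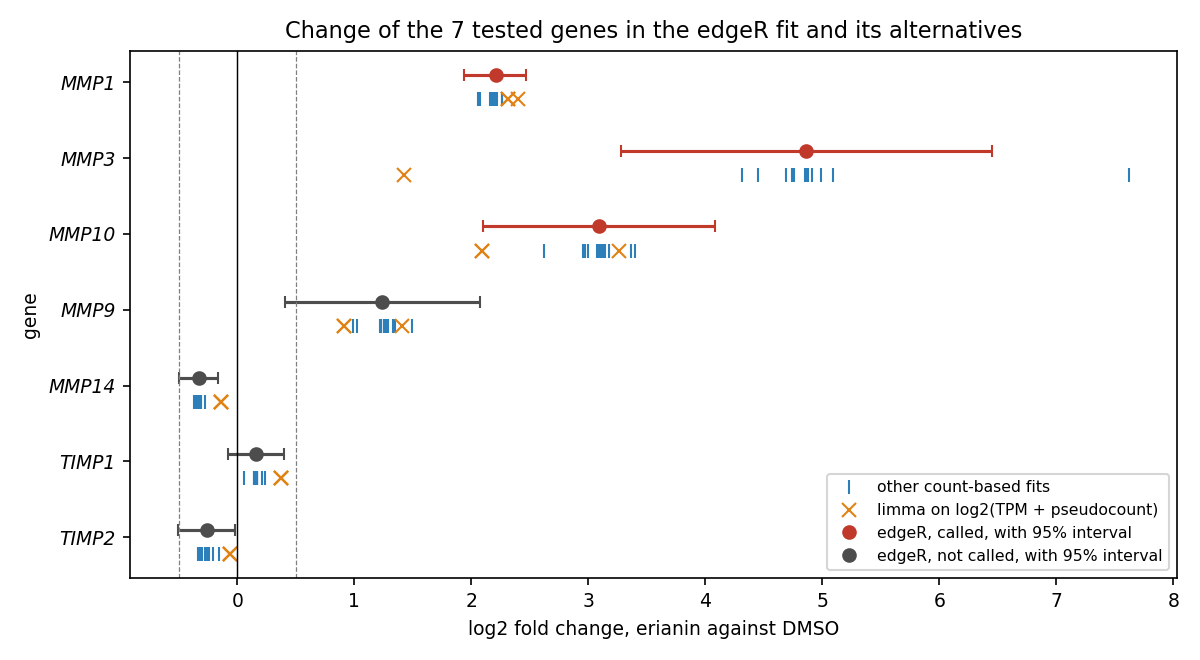
Log2 fold change (horizontal axis) of the 7 tested genes, with the edgeR estimate and its 95% interval (circles, red for DEGs) and, under each, the values of the alternative fits on counts (ticks) and on log2 TPM values (crosses). Dashed lines mark the thresholds of -0.5 and 0.5. MMP1, MMP3 and MMP10 stay above 1 in every fit, whereas MMP14, TIMP1 and TIMP2 stay between -0.5 and 0.5.

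By level, TIMP1 had a mean of 1988 ± 346 TPM with DMSO and MMP14 867 ± 80.3 TPM, followed by TIMP2 with 58.3 ± 4.71 TPM and MMP1 with 11.3 ± 1.16 TPM (SD, n = 3 each). The DMSO ranges of these 4 genes did not overlap. MMP9 and MMP10 came next with 0.997 ± 0.363 and 0.600 ± 0.389 TPM, and their ranges overlapped. TIMP3, MMP3, MMP2 and MMP13 followed, all below 0.2 TPM, each with a range that overlapped that of the gene before it in the order. With erianin TIMP1 had 2536 ± 63.9 and MMP14 786 ± 16.3 TPM. MMP1 reached 59.9 ± 0.599 TPM, just above TIMP2 at 55.8 ± 2.79 TPM, whose highest library, at 59.0 TPM, lay just under the lowest MMP1 library at 59.5 TPM. MMP10 had 5.70 ± 0.871, MMP9 2.77 ± 0.716 and MMP3 1.81 ± 0.358 TPM.

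The make-up of the MMP transcripts could be followed inside each library, where the scaling between libraries cancels. MMP14 made up 98.6%, 98.4% and 98.5% of the summed TPM of the 7 MMP genes in the DMSO replicates and 91.7%, 91.8% and 91.8% in the erianin replicates. MMP1, MMP3 and MMP10 together made up 1.29%, 1.44% and 1.35% with DMSO and 8%, 7.75% and 7.88% with erianin. MMP14 thus remained the main MMP transcript while the share of the chromosome 11 genes was higher in each erianin library, most of it MMP1. The summed TPM of the 7 MMP genes was 0.391, 0.438 and 0.473 of that of the 3 TIMP genes with DMSO and 0.326, 0.347 and 0.319 with erianin. The ratio of MMP14 to TIMP1 was 0.395, 0.443 and 0.485 with DMSO and 0.305, 0.327 and 0.299 with erianin, lower in every erianin library. The ratio of MMP1 to TIMP1 was between 0.00478 and 0.00655 with DMSO and between 0.0232 and 0.0242 with erianin. The ratio of MMP14 to TIMP2 overlapped between the groups, at 16.5, 16.3 and 12.2 with DMSO and 14.5, 13.6 and 14.2 with erianin. All these ratios compare transcripts only. The encoded proteins, their activity and their inhibition were not measured, so no balance of enzyme and inhibitor can be read from them.

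MMP10, MMP1 and MMP3 follow each other on chromosome 11, in a cluster that runs from MMP7 (102520508 to 102530753) to MMP13 (102942995 to 102955734). Of the other genes of the cluster, MMP12 had no matching row and could not be described. MMP20 and MMP27 were listed at 0 in every library, and MMP7 and MMP8 each had a total count of 4, all with erianin. Genes outside the cluster on each side were expressed at 10 CPM or more and served to describe the surroundings. Of 6 tested neighbors, 1 was upregulated and none was downregulated, against 5.37% and 3.36% of all tested genes. Their median log2 fold change was 0.11 against 0.00 for all tested genes. The upregulated gene was BIRC3, an inhibitor of apoptosis, at 0.69 (edgeR adjusted p = 0.0245), and of the 6 fits with 1 library left out it passed in that without DMSO replicate 3. With the GC offset, a correction for the GC content of transcripts, BIRC3 was at 0.49 and did not pass, DYNC2H1, a dynein chain, was downregulated at -0.63 (edgeR adjusted p = 0.00916), and the median of the 6 was -0.05 against -0.08 for all tested genes. YAP1, TMEM123, BIRC2 and DCUN1D5 had log2 fold changes of -0.27, 0.07, 0.15 and 0.17. WTAPP1, a pseudogene on the opposite strand that spans MMP10, MMP1 and the end of MMP3 and has 150 exonic bases in common with MMP1 and 32 with MMP3, was listed at 0 in all 6 libraries.

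**Figure D3:**
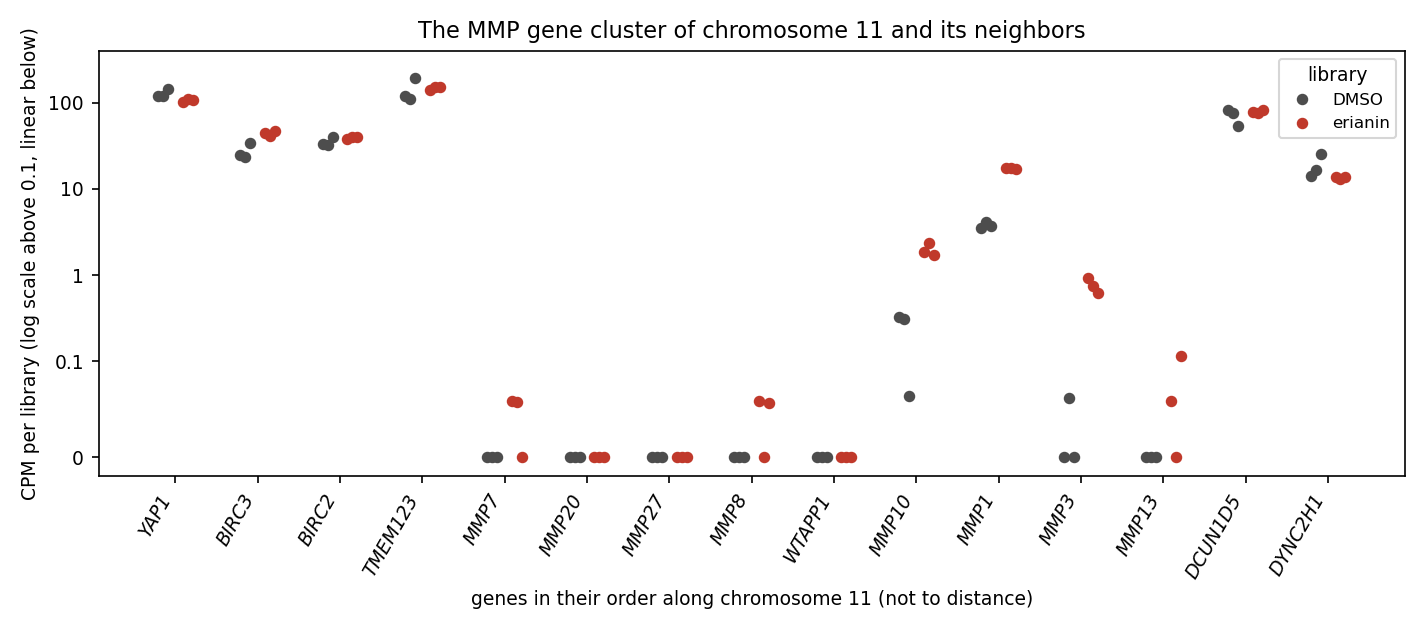
CPM per library (vertical axis, logarithmic above 0.1 and linear below) of 15 genes in their order along chromosome 11, with DMSO in grey and erianin in red. MMP12, a gene of the cluster without a matching row, is not drawn. MMP10, MMP1 and MMP3 stand side by side with erianin values above all DMSO values, whereas MMP20, MMP27 and WTAPP1 are at 0 in every library.

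Of 16 other MMP genes, 14 had a row in the table and 7 were tested. Of these, 1 was upregulated and none was downregulated, against 5.37% and 3.36% of all tested genes. Their median log2 fold change was 0.84 against 0.00 for all tested genes, and 6 of the 7 averaged below 10 CPM. MMP15, a membrane-type MMP, had 2.91 ± 0.815 CPM with DMSO and 7.05 ± 0.870 CPM with erianin (SD, n = 3 each) and rose by 1.27 on the log2 scale (edgeR adjusted p = 0.0112), and it did not pass with any erianin library left out. MMP11, or stromelysin-3, was the most abundant, with 30.1 and 25.8 CPM and a log2 fold change of -0.22 (edgeR adjusted p = 0.477). The membrane-type genes MMP16 and MMP25 had log2 fold changes of 0.56 and 0.46 (edgeR adjusted p = 0.226 and 0.22). Without DMSO replicate 3, MMP16, MMP19 and MMP24 passed as well, so that 4 of the 7 were upregulated, in a fit that called 11.4% of all tested genes upregulated. The fits without 1 erianin library called between 1.33% and 1.42% of all tested genes upregulated.

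Other inhibitors, activators and partners of MMPs showed 3 upregulated and 1 downregulated gene of 12 tested, against 5.37% and 3.36% of all tested genes. Their median log2 fold change was -0.07. TFPI2, a serine protease inhibitor of the matrix, had 191 ± 9.41 CPM with DMSO and 379 ± 7.27 CPM with erianin (SD, n = 3 each), an increase of 0.99 in log2 (edgeR adjusted p = 0.000893). PLAT, which encodes tissue plasminogen activator, rose by 1.02 (edgeR adjusted p = 0.00102), and LCN2, whose product binds MMP9, by 0.75 (edgeR adjusted p = 0.0417). PCSK6, a proprotein convertase, changed from 4.98 to 2.22 CPM, or by -1.17 (edgeR adjusted p = 0.00567). TFPI2, PLAT and PCSK6 passed with each library left out in turn, while LCN2 passed in 1 of these 6 fits, that without DMSO replicate 3. BSG, PLAU and CD44, among the most abundant genes of this group, had log2 fold changes of -0.08, -0.39 and -0.39, of which only PLAU had an edgeR adjusted p under 0.05 (0.0275).

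The ADAM and ADAMTS proteases are relatives of the MMPs that shed membrane proteins or cut proteoglycans. Of 12 tested, 2 were upregulated and 1 was downregulated, against 5.37% and 3.36% of all tested genes. Their median log2 fold change was 0.22. ADAM8 rose from 0.651 to 1.91 CPM and ADAMTS1 from 30.0 to 56.0 CPM, by 1.54 and 0.90 (edgeR adjusted p = 0.00837 and 0.00684). ADAM19 changed by -0.65 (edgeR adjusted p = 0.00678). ADAM15, ADAM9 and ADAM10, the most abundant, had log2 fold changes of -0.15, 0.13 and -0.04. ADAM19 did not pass with any erianin library left out, ADAM8 without erianin replicate 2 or 3, and ADAMTS1 without erianin replicate 2. Without DMSO replicate 3, ADAMTS4 was tested and upregulated as well, at 6.57 (edgeR adjusted p = 0.000808). In that fit 3 of 13 were upregulated, as were 11.4% of all tested genes. ADAMTS4 was listed at 0 in every DMSO library and had 0.117, 0.401 and 0.571 CPM with erianin. It thus entered that fit only through the erianin libraries, and its log2 fold change gives no bound. ADAMTS4 was also upregulated with DESeq2 and with no low-count filter.

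Of 14 tested genes for matrix proteins that MMPs cleave, 4 were downregulated and 1 was upregulated, against 3.36% and 5.37% of all tested genes. Their median log2 fold change was -0.29. FN1, which encodes fibronectin, fell from 5817 ± 864 to 3353 ± 254 CPM (SD, n = 3 each), and its log2 fold change was -0.80 (edgeR adjusted p = 0.00761). The laminin chain LAMA3 changed by -0.52 (edgeR adjusted p = 0.0219) and the tenascin TNC by -0.90 (edgeR adjusted p = 0.00126). The collagen chain COL1A2 rose from 9.80 to 24.9 CPM, or by 1.35 (edgeR adjusted p = 0.00532), while COL1A1, its partner in type I collagen, changed by -0.32 (edgeR adjusted p = 0.0613). LAMB3 had a log2 fold change of -0.17. TNC and COL1A2 passed with each library left out in turn. FN1 did not pass without erianin replicate 1 or 3, and LAMA3 passed in 1 of the 6 fits, that without DMSO replicate 1, with a log2 fold change of -0.44 without DMSO replicate 3. On log2(TPM + 1) values, 2 of 13 matrix genes were downregulated, where 0.805% of all 11670 genes tested were downregulated.

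The 18 listed transcription factors known to act at MMP promoters were all tested. Among them 2 were upregulated and none was downregulated, against 5.37% and 3.36% of all tested genes. Their median log2 fold change was 0.09. ATF3, a stress-induced factor that can pair with JUN proteins, was at 11.6 ± 2.17 CPM with DMSO and at 40.6 ± 1.69 CPM with erianin (SD, n = 3 each), higher by 1.82 in log2 (edgeR adjusted p = 0.00105). FOSB, a subunit of AP-1, rose by 0.63 (edgeR adjusted p = 0.00664), and did not pass without erianin replicate 2. The most abundant factors, FOSL1, ETS1, JUN and JUNB, had log2 fold changes of -0.21, 0.36, 0.23 and 0.14, of which only ETS1 had an edgeR adjusted p under 0.05 (0.0304). ETV1, an ETS factor, had -0.59 (edgeR adjusted p = 0.0518) and was downregulated in 5 alternative fits, namely DESeq2, RLE factors, no low-count filter, and the GC offset with and without the replicate block. On log2(TPM + 1) values, where the median of all genes was 0.18 higher, 5 of the 18 were upregulated, as were 9.41% of all genes tested on that scale.

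**Figure D4:**
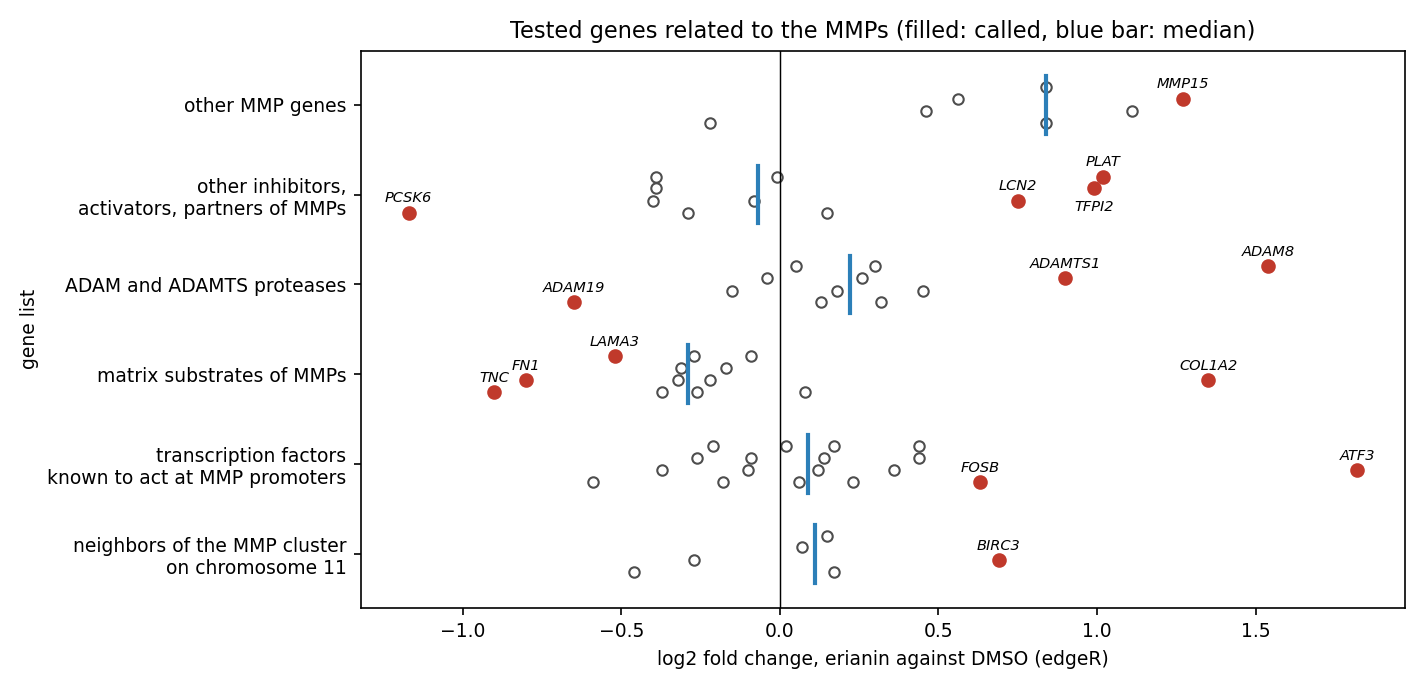
Log2 fold change from edgeR (horizontal axis) of the tested genes in 6 groups related to the MMPs, with DEGs as filled, named points, other genes as open points and the median over all tested genes of each group as a blue bar. In the groups of inhibitors and matrix substrates 1 gene each is not drawn. The median is 0.84 for the other MMP genes and -0.29 for the matrix substrates, and lies between -0.07 and 0.22 for the other groups.

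Likeness to the 3 upregulated genes was measured as the Euclidean distance between log2 CPM values centered per gene, over the 6 libraries, among 11554 genes with a mean of at least 1 CPM. The nearest to MMP1 were HMOX1, RND1 and ABCA1, at distances of 0.293, 0.341 and 0.363. HMOX1 encodes the heme-degrading enzyme heme oxygenase 1, RND1 a small GTPase and ABCA1 a cholesterol transporter. The nearest to MMP10 were DEFB4A, VGF and DKK1, at 0.694, 0.722 and 0.962, of which DEFB4A has a near-identical copy and its count is therefore uncertain. The nearest to MMP3 were VGF, RRAD and DKK1, at 1.02, 1.17 and 1.35. Among the 3 themselves, MMP10 and MMP3 were at 1.37, MMP1 and MMP10 at 1.61 and MMP1 and MMP3 at 1.65. With counts of 0 in DMSO libraries, the distances of MMP3 depend on the prior count. All genes share the 6 libraries and their depth, and these distances are a description without a test.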

How the data were processed

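Total RNA of CAL62 cells was sequenced by the authors on the BGISEQ-500 platform. For each gene, raw counts and TPM values of the 6 libraries were deposited by the authors. The TPM columns sum to 73.5%, 72.6% and 59.1% of their nominal total in DMSO replicates 1, 2 and 3. In erianin replicates 1, 2 and 3 they sum to 77.2%, 75.1% and 78.3%. The submitters' processing notes list fastp 0.23.2, STAR 2.7.10, featureCounts 2.0.1, StringTie 2.2.1 and GRCh38, without role or order. The annotation, the use of strand and the counting of read pairs are not given in the sources used here, so overlapping and antisense genes can share reads.

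Of 65807 rows, 26480 carry no identifier, hold at most 0.00515% of the reads and were left out. Of 39168 identifiers, 38259 matched a symbol. All 10 genes stand on a single row each. Positions came from GENCODE 29 and promoters from RefSeq.

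Counts were fitted with edgeR 4.0.16 (TMM factors, filterByExpr, glmQLFit, glmQLFTest) in R 4.3.3 over the whole table, with Benjamini-Hochberg adjustment over all 12821 tested genes. Standard errors came from the quasi-likelihood F statistic. Alternatives were DESeq2 1.42.0, RLE and upper-quartile factors, other low-count filters, limma 3.58.1 on log2(TPM + 1) and log2(TPM + 0.1), the replicate number as a block, a GC content offset (loess, span 0.5), both of these, each library left out and other fold-change thresholds. The steps were tested on counts simulated with a coefficient of variation of 0.1 in every library. There edgeR called 193 of 200 changed genes and 3 unchanged genes. No simulated library deviated as DMSO replicate 3 did, so data with such a library were not covered. Figures used matplotlib 3.10.9.

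The 10 genes and the 6 lists of related genes were chosen with earlier results of these data known. All 10 genes are named, and in each list the DEGs and the 4 genes with most CPM, and for up to 3 DEGs among the 10 the 3 nearest genes. Other genes are named after their values were seen, where a setting calls them or their listing at or near 0, or lack of a row, is described. A few genes of the lists and markers are counted in the totals but not reported here.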

Additional observations from a re-analysis of the deposited data

How the results depend on the processing

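MMP1 was upregulated in all 17 alternative fits, with log2 fold changes from 2.06 to 2.40, and MMP3 and MMP10 in each of the 14 and 16 fits that tested them, from 1.42 to 7.62 and from 2.09 to 3.40. The lowest value of MMP3 came from log2(TPM + 1), on which its level was 1.81 TPM with erianin. MMP9 passed in 7 of 16 fits, with edgeR, DESeq2 or limma adjusted p-values from 0.0165 to 0.198 over all of them. MMP14, TIMP1 and TIMP2 kept their signs and passed both thresholds in none of 17 fits each, with an adjusted p under 0.05 in 8, 0 and 1 of them. A filter of at least 10 counts in every library left only 4 of the 10 genes to test and 1 upregulated, MMP1, by construction. The levels in TPM kept the order of all 10 genes on scaled counts per relative length. Both come from the same reads, so the common order is no independent support. Reads of MMP2, MMP3, MMP13 and TIMP3 with DMSO were too few to show a decrease.

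Over all genes, 688 were upregulated and 431 downregulated, and in the 6 lists 10 and 6. The causes of the following moves were not tested. With limma on TPM values (pseudocount 1, pseudocount 0.1, and pseudocount 1 with all genes kept), 1098, 1207 and 1057 genes were upregulated and 94, 110 and 88 downregulated, and 2 list genes were downregulated in each, so that 92.1%, 91.6% and 92.3% of the DEGs were higher against 61.5%, with median shifts of 0.18, 0.20 and 0.12. With upper-quartile factors 73.3% were higher, and with the GC offset 48.3%, where 704 genes were downregulated. Without a fold-change threshold 986 genes and 10 list genes were downregulated. A threshold of 1 keeps fewer genes by construction, with 324 genes upregulated and 28 downregulated, and 5 and 1 in the lists. Libraries of the same replicate number did not deviate together (correlations of deviations 0.00138, 0.0253 and -0.0329), and with the replicate block 384 genes were upregulated and 281 downregulated, with MMP1, MMP3 and MMP10 among them. With 1 library left out, upregulated genes ranged from 172 to 1485, downregulated genes from 126 to 797, members called from 3 to 4, list genes upregulated from 4 to 14 and downregulated from 2 to 6. The highest counts over all genes came without DMSO replicate 3, where the biological coefficient of variation fell from 0.139 to 0.0421.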
